A study of Mus musculus with 24 samples.

Results

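The genes described are 10 genes of nuclear speckle and SR-like proteins, Son, Srrm1, Srrm2, Pnisr, Luc7l, Luc7l3, Rbm25, Srsf11, Prpf38b and Ddx5, out of 56923 gene identifiers counted. They were chosen by name because earlier results of these data had shown their RNA high at P7 and low at P14. Their change with postnatal day is therefore a description, in which counts of genes called between days are printed but support nothing, and only the comparison of genotypes is read as a test. RNA of cardiomyocyte (CM) nuclei was measured by 3′ mRNA sequencing in mice at postnatal day 1 (P1), 7 (P7) and 14 (P14). Nuclei of frozen ventricles were stained for PCM1, a marker of CM nuclei, and sorted, with 15 hearts pooled for a P1 library, 6 for a P7 library and 2 for a P14 library. All mice carried Casp2(fl/fl), the floxed caspase-2 gene. Casp2-depleted mice, XMLC2(+)Casp2(fl/fl), also carried the XMLC2-Cre transgene, whose promoter is active in CMs, and control mice, XMLC2(-)Casp2(fl/fl), whose genotype the labels also give as WT, did not. A control that carries Cre without the floxed allele was not among the libraries.

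Nuclear speckles are bodies in the nucleus where splicing factors are stored and modified, next to active genes. Many of their proteins carry stretches rich in arginine and serine (RS or SR), through which they bind one another and the splicing machinery. Transcripts of several SR-related genes are known to keep introns and to stay in the nucleus, so an RNA sample of nuclei holds them together with finished mRNA. Levels are CPM, a gene's reads relative to all reads on genes of the library, scaled between libraries by the trimmed mean of M-values (TMM), and a difference is a log2 fold change with its standard error (SE).

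The study left out 3 of 24 libraries, which leaves 3 control and 4 Casp2-depleted libraries at P1, 4 and 4 at P7, and 3 and 3 at P14. The 21 libraries held 891817 to 2924097 reads on genes and 7628 to 17770 detected genes. Of the uniquely placed reads, 36.8 to 73.9% lay on no gene at P1, 34.3 to 64.3% at P7 and 63.7 to 76.1% at P14. All 8 CM markers were read in every library, and their summed level was 23043 to 75232 CPM at P1, 45182 to 81800 CPM at P7 and 12033 to 44351 CPM at P14. Marker sums of other cell types stayed far lower, at 53.2 to 317 CPM for fibroblasts, 50.04 to 1052 CPM for endothelial cells, 65.7 to 488 CPM for mural cells, 42.0 to 303 CPM for macrophages and 0 to 109.6 CPM for erythroid cells, and Cd68 and Egfl7 had 0 reads in all 21 libraries. The mural sum mainly follows Abcc9, with 7968 reads over the 21 libraries. Kcnj8 held 1495 reads, Notch3 1056, Pdgfrb 456 and Rgs5 55. The CM marker sum moved with day as the 10 genes did, with medians of 36189, 62076 and 22951 CPM at P1, P7 and P14, and the mural sum fell from 364 to 313 and 210 CPM. The sums of endothelial cells (medians of 287, 179 and 463 CPM), macrophages (97.1, 53.8 and 163 CPM) and fibroblasts (114, 101 and 153 CPM) were instead lowest at P7 and highest at P14. The part of any of these in the results below was not tested. Casp2 itself held 0 to 5 reads per library, in either genotype, which is too few to check the labels. In pooled nuclei, fewer cells of a type and less RNA per cell cannot be told apart.

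The bases before the transcription start were read from the GRCm39 genome for the canonical transcript of each gene. The genes were chosen for their shared course over days, so the promoters are a description. Whether any motif has a part in that course was not tested. Promoters of 4 genes are shown, those of Son and Srsf11, the pair with the most alike pattern over the libraries, and those of Luc7l3 and Rbm25, which held most of the 10 genes' reads at P14. Each stretch is the 200 bases that end just before the start, 5′ to 3′ on the gene's strand. Capitals mark an ETS core (CCGGAAG) or a CCAAT box (CCAAT), and their reverse complements, which were searched on both strands.
Son (chr16:91443749-91443948, plus strand): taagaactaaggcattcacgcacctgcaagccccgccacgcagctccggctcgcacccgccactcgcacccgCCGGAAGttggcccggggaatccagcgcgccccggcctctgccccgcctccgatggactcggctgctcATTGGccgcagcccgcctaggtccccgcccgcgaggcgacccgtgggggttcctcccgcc
Srsf11 (chr3:157742311-157742510, minus strand): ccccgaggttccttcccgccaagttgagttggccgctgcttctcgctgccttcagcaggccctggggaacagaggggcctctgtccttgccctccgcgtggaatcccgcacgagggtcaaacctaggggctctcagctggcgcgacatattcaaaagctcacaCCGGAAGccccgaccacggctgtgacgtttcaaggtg
Luc7l3 (chr11:94213206-94213405, minus strand): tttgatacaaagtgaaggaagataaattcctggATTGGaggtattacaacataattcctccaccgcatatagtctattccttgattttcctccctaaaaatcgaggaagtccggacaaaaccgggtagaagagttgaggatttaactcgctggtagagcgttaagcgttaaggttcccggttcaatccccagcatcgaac
Rbm25 (chr12:83678785-83678984, plus strand): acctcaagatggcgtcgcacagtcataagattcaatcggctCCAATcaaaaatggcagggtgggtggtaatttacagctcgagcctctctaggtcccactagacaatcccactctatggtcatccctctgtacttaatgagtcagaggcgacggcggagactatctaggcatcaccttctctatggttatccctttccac
The ETS core lay in 2 of the 10 promoters, Son and Srsf11, and in 6.27% of 21631 promoters of protein-coding genes. A CCAAT box lay in 5 of 10, those of Son, Srrm1, Luc7l3, Rbm25 and Prpf38b, and in 32.3% of all. The CRE (TGACGTCA) and the TATA box (TATAAA) lay in 0 of the 10 windows and in 1.59% and 9.61% of all. The NRF1 and YY1 motifs were each searched as a single fixed string of 10 bases. These strings lay in 0 of the 10 windows and in 0.643% and 0.236% of all. Shorter or variant forms were not searched, so their absence is not shown. The Rbm25 window above holds all but the last base of the YY1 string. The windows of the 10 genes held a median of 13 CpG (range 5 to 24), against a median of 7 over all promoters.

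The genes are longer than the typical gene, with a median of 32637 bp against 19281 bp over 21631 protein-coding genes. Introns make up a median of 60.8% of the gene, against 75.2%. The files count reads over the full gene, exons and introns together, so spliced and unspliced RNA are not separated. The primer of the 3′ kit binds runs of A, and the sense strand of the 10 genes held a median of 2.5 runs of at least 12 A (range 0 to 4), or 0.873 per 10 kb, where the median over all genes was 0.356 per 10 kb. Annotated genes on the opposite strand overlap 9 of the 10, all but Luc7l3. They include Gart and Donson at Son, Elob at Srrm2, Lrrc40 at Srsf11 and Cep95 at Ddx5, and are otherwise genes with only a Gm or Rik name, as at Srrm1, Pnisr, Luc7l, Rbm25 and Prpf38b. How reads were assigned in these overlaps is not known, since the strand setting of the counting is not given in the sources used here. Reads set aside as ambiguous between genes were 0.704 to 2.08% of uniquely placed reads in the 21 libraries and are in no gene's count.

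Across the 6 groups, each of the 10 genes had its highest mean CPM at P7 in both genotypes and its lowest mean CPM at P14, with Luc7l in control the closest case (562 CPM at P1 and 482 CPM at P14). The 10 genes together took 0.764 to 1.93% of the reads on genes at P1, 1.34 to 3.04% at P7 and 0.480 to 1.19% at P14. For each gene and in both genotypes the fitted fall from P7 to P14 was larger than the fitted rise from P1 to P7. In control libraries the rise ran from 0.75 (Son) to 3.68 (Ddx5) with a median of 1.06, and the fall from -5.33 (Ddx5) to -1.28 (Luc7l3) with a median of -2.86. In Casp2-depleted libraries the rise ran from 0.22 (Srrm2) to 1.81 (Luc7l) with a median of 0.82, and the fall from -4.14 (Son) to -1.77 (Luc7l3) with a median of -3.58. All tested genes had medians of 0.21 and -0.75 in control and 0.07 and -0.61 in Casp2-depleted libraries for the same steps.

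**Figure D1:**
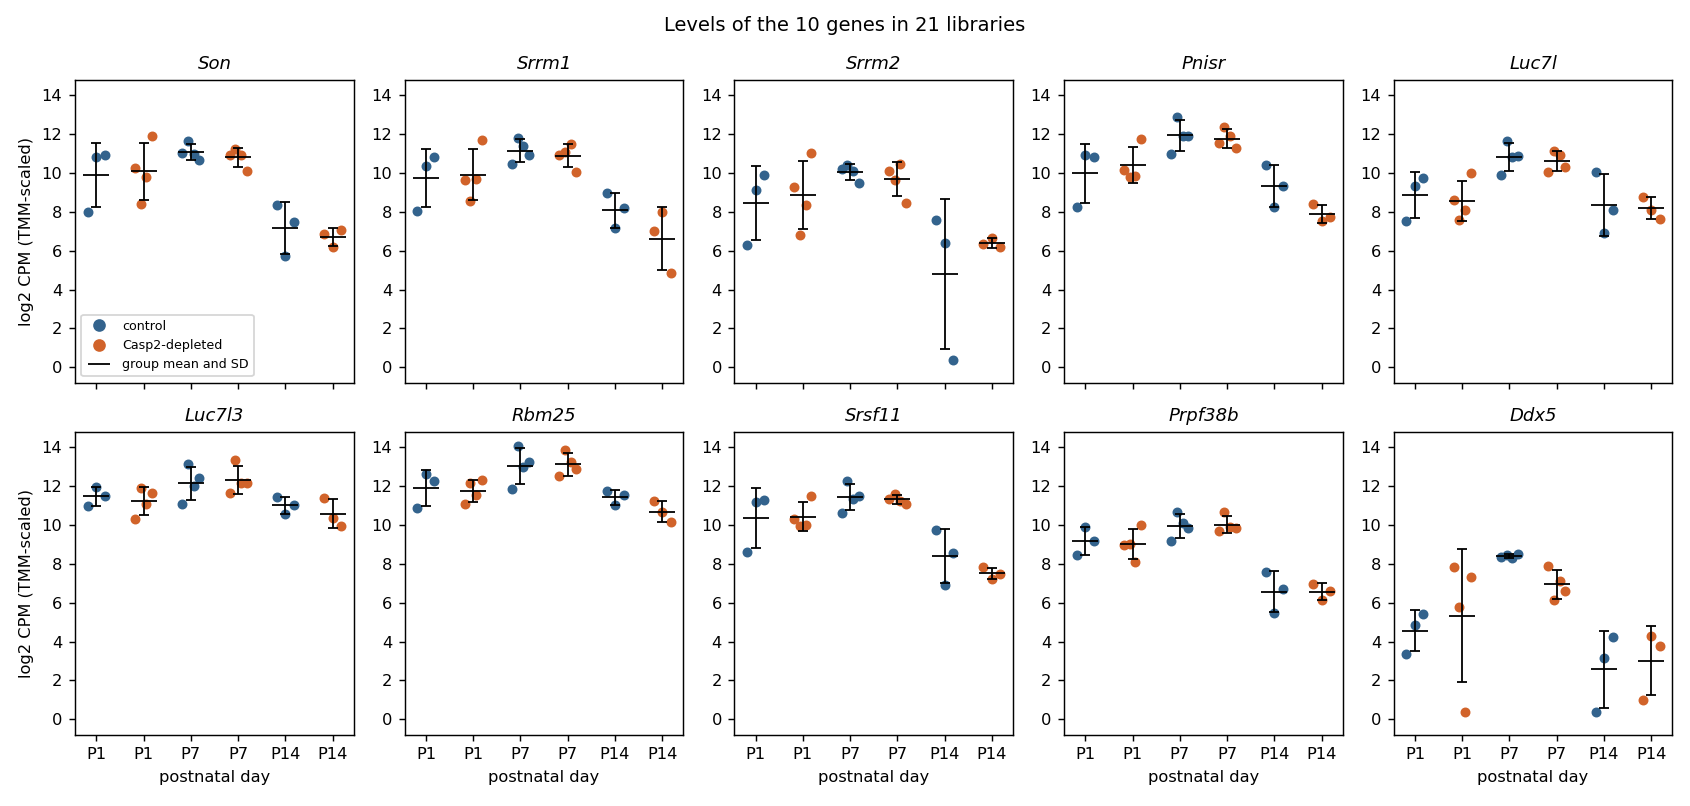
Level of each of the 10 genes as log2 CPM (vertical axis, TMM-scaled) in the 21 libraries, by postnatal day (horizontal axis) and genotype (colour). Each point is 1 library and the black marks are the group mean and SD (n = 3 or 4). In every panel and both genotypes the P7 mean is the highest and the P14 mean the lowest.

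Son, at chr16:91443949-91476605 on the plus strand, encodes a large scaffold protein of the speckle. Its level was 256, 1792 and 1936 CPM in the P1 control libraries and 1209, 332, 875 and 3891 CPM in the P1 Casp2-depleted libraries. At P7 it was 2068, 3219, 2014 and 1606 CPM in control and 1975, 2415, 1977 and 1083 CPM in Casp2-depleted libraries. At P14 it was 325, 51.6 and 174 CPM in control and 115, 70.4 and 132 CPM in Casp2-depleted libraries. Every P14 library thus lay below every P7 library, while the P1 libraries reached from the P14 range to above the P7 range. The fitted fall from P7 to P14 was -3.60 (SE 0.51) in control and -4.14 (SE 0.52) in Casp2-depleted libraries.

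Srrm2, at chr17:24009506-24043715 on the plus strand, encodes the other large scaffold protein. Its level was 1178, 1381, 1114 and 710.1 CPM in the P7 control libraries and 1105, 795, 1423 and 350.4 CPM in the P7 Casp2-depleted libraries. At P14 it was 189.5 and 82.3 CPM in control replicates 1 and 2, and control replicate 4 had 0 reads, which allows up to 3 reads or 3.36 CPM by reads on genes. The 3 Casp2-depleted libraries held 80.1, 101 and 71.9 CPM at P14. Srrm2 had the widest errors of the 10 genes, with an SE of 1.34 for its fall of -3.59 in control and an SE of 1.33 for its fall of -3.45 in Casp2-depleted libraries.

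Srrm1, Pnisr and Srsf11 encode SR-related proteins found in speckles, of which Srrm1 is a splicing coactivator. Srrm1 lies at chr4:135046676-135080632, Pnisr at chr4:21847580-21878215 and Srsf11 at chr3:157716110-157742310. Srrm1 had a mean of 2404 ± 940 CPM (SD, n = 4) in P7 control and 307 ± 177 CPM (SD, n = 3) in P14 control libraries. Srsf11 had 2994 ± 1379 CPM (SD, n = 4) and 447 ± 369 CPM (SD, n = 3). In Casp2-depleted libraries Srrm1 went from 1996 ± 742 to 137 ± 114 CPM, and Srsf11 from 2580.2 ± 402 to 183 ± 38.2 CPM. The P14 and P7 libraries of a genotype did not overlap for any of the 3 genes.

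Pnisr followed the other 9 genes most closely. Its level was 2038, 7663, 3852 and 3859 CPM in the P7 control libraries and 3009, 5296, 3762 and 2460.4 CPM in the P7 Casp2-depleted libraries. At P14 it was 1347, 304 and 649 CPM in control and 339, 180.4 and 215 CPM in Casp2-depleted libraries. The P14 control libraries spread wider than the Casp2-depleted ones, and control replicate 2 lay below the highest Casp2-depleted library.

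Rbm25, Luc7l3 and Luc7l encode proteins that work with the U1 snRNP, the particle that marks the 5′ splice site. Rbm25 lies at chr12:83678010-83731654, Luc7l3 at chr11:94178716-94213205 and Luc7l at chr17:26471870-26504486. Rbm25 was at 3685, 17455, 8252 and 9856 CPM in the P7 control libraries and at 5786, 15022, 9633 and 7540.4 CPM in the P7 Casp2-depleted libraries. At P14 it was at 3505, 2067 and 2942 CPM in control and 2392, 1614 and 1154 CPM in Casp2-depleted libraries. P7 control replicate 1 lay just above the highest P14 control library, and the other P7 libraries lay well above it.

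Luc7l3 fell least. Its level was 2147, 8922, 4061 and 5428 CPM in P7 control and 3206, 10440.2, 4535 and 4662 CPM in P7 Casp2-depleted libraries. At P14 it was 2764, 1516 and 2066 CPM in control and 2699.8, 1337 and 979 CPM in Casp2-depleted libraries. The days overlapped in control, where P7 replicate 1 lay below P14 replicate 1, and did not overlap in Casp2-depleted libraries. The fitted fall was -1.28 (SE 0.36) and -1.77 (SE 0.36). Luc7l fell by 2.03 (SE 0.46) and 2.42 (SE 0.46) on the log2 scale and also overlapped in control libraries.

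Prpf38b, at chr3:108808326-108819067, encodes a protein related to a component of the spliceosome before its activation. It went from 628 ± 313 CPM (SD, n = 3) at P1 to 1058 ± 450 CPM (SD, n = 4) at P7 and 111 ± 73.9 CPM (SD, n = 3) at P14 in control libraries. In Casp2-depleted libraries it went from 575 ± 317 CPM to 1069.8 ± 372 CPM and 96.5 ± 28.0 CPM.

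Ddx5, at chr11:106671180-106680024, encodes a DEAD-box RNA helicase that takes part in splicing and transcription. It was the thinnest of the 10, with 0 to 617 reads per library. Its level was 9.002, 28.1 and 41.2 CPM in P1 control and 228, 54.6, 0 and 156 CPM in P1 Casp2-depleted libraries. At P7 it was 322, 345, 311 and 365 CPM in control and 236, 69.5, 139.9 and 96.0 CPM in Casp2-depleted libraries, and at P14 it was 0, 7.48 and 17.4 CPM in control and 0.703, 18.2 and 12.4 CPM in Casp2-depleted libraries. The 4 P7 control libraries lay closer together than for any other of the 10 genes (SD of 0.10 on the log2 CPM scale) and above the other 17 libraries. A count of 0 reads allowed up to 2.46 CPM in P1 Casp2-depleted replicate 3 and 2.35 CPM in P14 control replicate 1, by reads on genes.

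With the study's cutoffs (log2 fold change beyond 1 in either direction, adjusted p under 0.05), 0 of 10 genes were called higher at P7 than at P1 in control and 2 in Casp2-depleted libraries (Luc7l and Rbm25), where 0.00982% and 0.0196% of all 20368 tested genes were called higher. Between P7 and P14, 9 of 10 were called lower in each genotype, with Srrm2 the exception, where 1.87% of tested genes were called lower in control and 2.82% in Casp2-depleted libraries. Since these steps chose the genes, nothing is read from the counts. The P7 and P14 libraries did not overlap for 8 genes in control, where this held for 13.5% of tested genes, and for 10 in Casp2-depleted libraries, where it held for 10.9%. No other values define a border of the set, since it was listed by name.

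The rise from P1 to P7 in control rested in part on P1 control replicate 2, which held 73.9% of its reads on no gene. Without it, the median rise over the 10 genes was 0.54 in place of 1.06, and that of all genes 0.18 in place of 0.21. The 3 P1 libraries with the lowest mean level of the 10 genes, at 8.04, 8.69 and 8.997 log2 CPM, were the 3 with the most reads on no gene, at 73.9, 70.6 and 68.2%. In P1 Casp2-depleted replicate 4, with 36.8% of its reads on no gene, the mean level was 10.92 log2 CPM, within the range of the P7 libraries (10.28 to 11.70).

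The levels of the 10 genes were therefore set against 2 measures of library composition, within each day so that the days do not mix. Both genotypes of a day were put together. In P14 libraries the mean share of reads on no gene was 74.6% in Casp2-depleted and 70.5% in control. The 2 means were 56.4 and 65.3% at P1, and 50.8 and 46.7% at P7. Genotype and composition are therefore mixed within each day. At P14, with 63.7 to 76.1% of reads on no gene in 6 libraries, 9 of 10 genes were lower where more reads lay on no gene, with a median Pearson r of -0.79 (range -0.94 to 0.79, the exception being Ddx5) and a median Spearman rho of -0.69. At P1, in 7 libraries, 9 of 10 had an r below 0, with a median of -0.75 and a median rho of -0.82, and Luc7l3 had an r of 0.02. At P7, in 8 libraries, the median r was -0.25 and the median rho -0.14, and Son had the lowest r, at -0.72. Over all genes that vary, the median r was 0.16 at P14, -0.17 at P1 and -0.07 at P7. Of the 60 relations (10 genes, 3 days and 2 measures), 0 passed an adjusted p of 0.05 by r or by rho in two-sided exact permutation tests, and the smallest adjusted p was 0.0982. At an unadjusted p below 0.05, 7 of 10 genes at P14 (6 with an r below 0, and Ddx5 with 0.79), 5 at P1 and 1 at P7 passed by r with the share of reads on no gene, and 0, 6 and 0 with the number of detected genes. The share of all genes that passed is not given here, and the 10 genes move together (median r of their pairs 0.79). Nothing is therefore read from these counts.

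Pnisr gave an r of -0.93 (exact permutation p = 0.00556, adjusted p = 0.0982, n = 6) and a rho of -0.94 (exact permutation p = 0.0167, adjusted p = 0.128) at P14, and an r of -0.73 without the 2 libraries farthest from the median share. Srsf11 gave an r of -0.94 at P14 (exact permutation p = 0.0139, adjusted p = 0.119, n = 6), and -0.77 without those 2. Without the 2 farthest libraries, the median r was -0.71 at P14, -0.38 at P1 and 0.11 at P7, so the relation at P1 was weaker without those 2 libraries and at P7 its direction turned, although Son kept an r of -0.75 there. The number of detected genes gave a median r of 0.85 in the P1 libraries, 0.15 at P7 and -0.29 at P14, where over all genes that vary it gave 0.27, 0.15 and 0.28. At most 2 libraries of a day share a replicate number, too few for a value within a number.

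**Figure D2:**
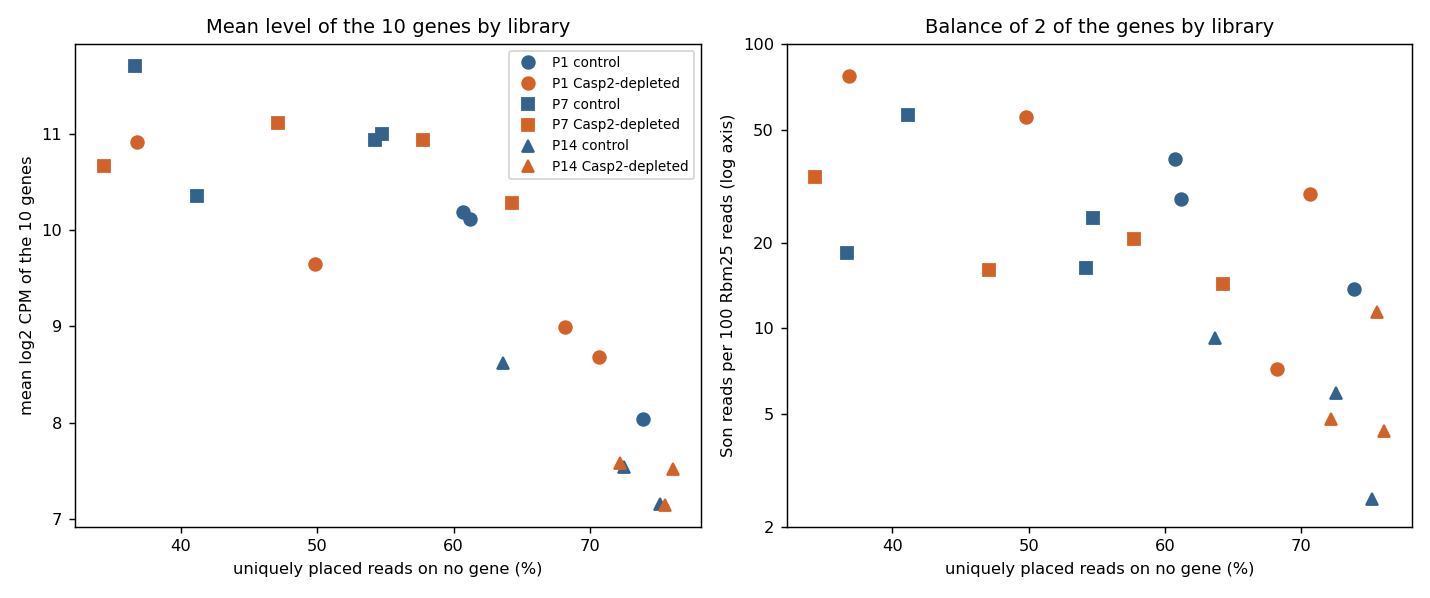
Mean log2 CPM of the 10 genes (left, TMM-scaled) and Son reads per 100 Rbm25 reads (right, log axis) against the percent of uniquely placed reads that lay on no gene, for 21 libraries. Symbols mark the day and colours the genotype, with 1 point per library. Among libraries with 68.2% or more on no gene, the 3 of P1 (68.2 to 73.9%) lie between 8.04 and 8.997 in the left panel and the 5 of P14 (72.2 to 76.1%) lie lower, between 7.15 and 7.58.

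The 10 genes did not move by one factor. Rbm25 and Luc7l3 together held 58.5 to 80.5% of the 10 genes' reads in P14 control and 69.6 to 77.8% in P14 Casp2-depleted libraries, against 36.6 to 51.8% and 41.5 to 58.95% at P7. At P1 their share ran from 31.6 to 71.1%. These are shares of reads, not corrected for gene length, and do not rank the genes by level. The reads of Son per 100 reads of Rbm25, a ratio within a library that no scaling changes, were 16.3 to 56.1 in P7 control and 14.4 to 34.1 in P7 Casp2-depleted libraries. At P14 the ratio was 9.27, 2.50 and 5.92 in control and 4.79, 4.36 and 11.4 in Casp2-depleted libraries, below every P7 library. At P1 it ranged from 7.20 in the library with 68.2% of reads on no gene to 77.4 in that with 36.8%, a spread that takes in the whole P7 range.

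**Figure D3:**
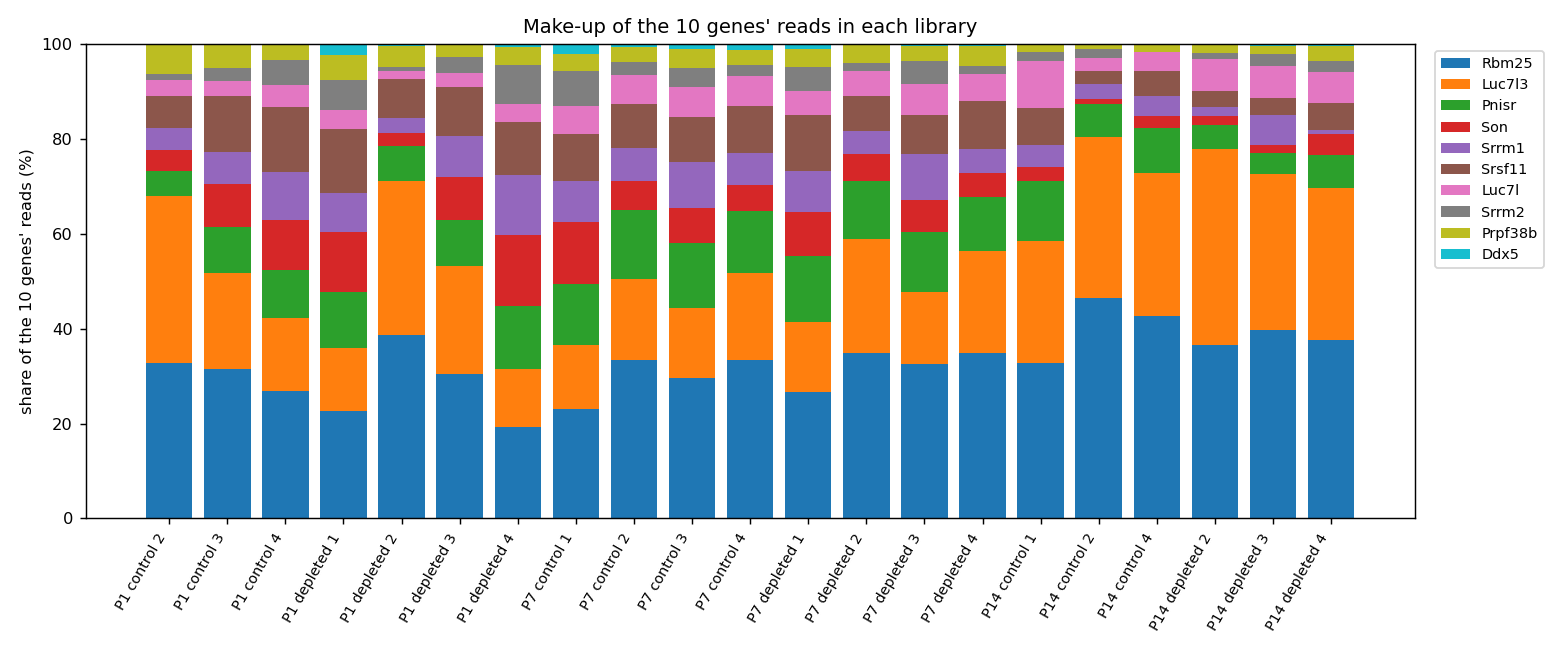
Share of the 10 genes' reads held by each gene (vertical axis, percent, stacked to 100) in each of the 21 libraries (horizontal axis, day, genotype and replicate number, where depleted means Casp2-depleted). Rbm25 and Luc7l3 fill 58.5 to 80.5% of the bars at P14 and 36.6 to 58.95% at P7.

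Malat1, a nuclear noncoding RNA held in speckles, moved with the 10 genes. It took 1.45 to 6.69% of the reads on genes at P1, 2.94 to 7.41% at P7 and 0.216 to 3.15% at P14. Its fitted change from P7 to P14 was -2.57 (SE 0.90) in control, which was not called (adjusted p = 0.231), and -3.92 (SE 0.97, adjusted p = 0.0404) in Casp2-depleted libraries, where it was called lower. Neat1, the scaffold of paraspeckles, had a mean of 860 ± 442 CPM (SD, n = 4) in P7 control and 161 ± 74.3 CPM (SD, n = 3) in P14 control libraries, and was not called (adjusted p = 0.335).

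Further factors were given by a list of 111 splicing genes, of which all but 3 had enough reads to be tested. Of these, 22 were called lower and 0 higher in control by P14, relative to P7, and 32 lower and 0 higher in Casp2-depleted libraries, with median log2 fold changes of -2.33 and -2.70. Over all tested genes, 1.87% and 2.82% were called lower, with medians of -0.75 and -0.61. The list was written with earlier results of these data known and is no independent evidence. The other RS-rich and speckle proteins gave most of the calls, 14 and 18 of 32, and the B complex and tri-snRNP proteins gave 0 and 0 of 17. Between P1 and P7, 0 were called in either genotype, while 95 had a fitted rise in control and 69 in Casp2-depleted libraries, where 55% and 52.5% of all genes did.

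Among the kinases that phosphorylate SR proteins, 3 of 11 were called lower at P14 in control and 4 in Casp2-depleted libraries. Of all tested genes, 1.87% and 2.82% were. Clk1 fell by 2.61 (SE 0.67, adjusted p = 0.0107) in control and 5.33 (SE 0.78, adjusted p = 8.52e-09) in Casp2-depleted libraries, Dyrk1a fell by 4.24 and 4.61, and Prpf4b by 2.57 and 3.10. Snrnp70, a protein of the U1 snRNP, fell by 5.03 (SE 0.95, adjusted p = 6.25e-05) in control, from 251 ± 124 CPM (SD, n = 4) to 7.59 ± 10.1 CPM (SD, n = 3). Ddx17, the close relative of Ddx5, fell by 2.96 (SE 0.72, adjusted p = 0.00506) in control and 2.87 (SE 0.72, adjusted p = 0.00500) in Casp2-depleted libraries. Sf1, Ccnl1 and Srsf3 had 421, 782 and 457 reads over the 4 P7 control libraries and 0 reads each over the 3 P14 control libraries. All 3 genes were still read in P14 Casp2-depleted libraries, with fitted differences from control of 4.88, 4.07 and 6.48 that were not called. Others with large changes were Prpf40b and Scaf11 and, in Casp2-depleted libraries, Sf3b2, Dhx8, Ddx46, Luc7l2, Srsf10, Rnps1, Pnn and Zranb2.

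Outside the 10 genes, the genes whose pattern over the 21 libraries was most like their mean were Rbm39 (r = 0.98), Ppp1r12a, Upf3b, Baz2b and Sptbn1 (r = 0.97 each), and Lmo7, Srek1 and Srrt (r = 0.96 each), among 8253 genes with a mean of at least 20 CPM. The median r of those genes was 0.22 and their 95th percentile 0.81. Rbm39 and Srek1 are SR-like proteins of the list. The 21 libraries share their days and composition, so the values only describe likeness. Among the 10 genes themselves, the r with the mean of the other 9 was 0.97 for Pnisr and Srsf11 and lowest for Ddx5 (0.67), Srrm2 (0.74) and Luc7l3 (0.78).

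Both scaling and reads outside genes changed the size of the day effect. TMM factors were 0.575 to 0.983 at P7 and 1.11 to 1.57 at P14, so TMM widened the fall. Scaled by reads on genes alone, the median fall of the 10 genes was -2.07 in control and -2.74 in Casp2-depleted libraries and the median of all genes was 0, so that the gap to all genes was -2.07 and -2.74, against -2.11 and -2.96 with TMM. With the percent of reads on no gene in the model, the median fall was -1.80 and -2.48, where that of all genes was -0.66 and -0.43, and 3 of 10 genes were called lower in each genotype, where 0.187% of tested genes were called lower in control and 0.712% in Casp2-depleted libraries. That term also took the median rise from P1 to P7 in control from 1.06 to 0.43 and left that in Casp2-depleted libraries at 0.76, and it turned Son in control from 0.75 to -0.32. The P7 libraries reached up to 64.3% on no gene and the P14 libraries began at 63.7%, so day and library composition cannot be told apart here. With quantile normalization and limma-voom, Luc7l3 turned from a fall to 0.18 in control and 0.66 in Casp2-depleted libraries, and Rbm25 to 0.25 in Casp2-depleted libraries. With all 24 libraries the median fall was -2.34 and -2.72.

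**Figure D4:**
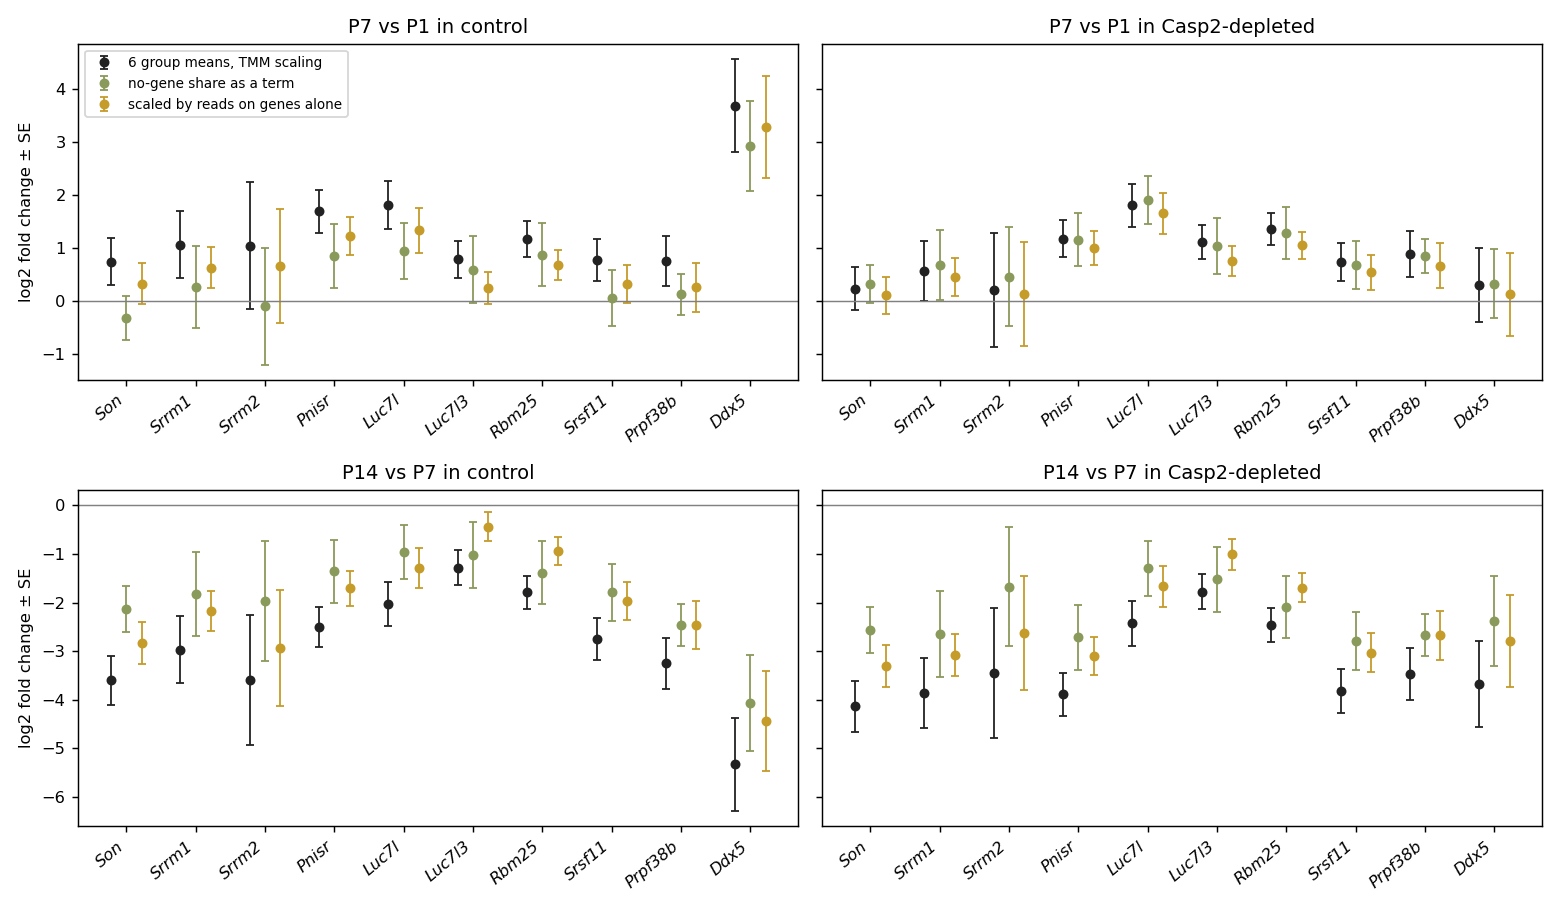
Log2 fold change (vertical axis) with its SE (bars) of each of the 10 genes (horizontal axis) between days in each genotype, from the fit of 6 group means with TMM scaling (black), with the percent of reads on no gene in the model (green) and scaled by reads on genes alone (yellow). From P7 to P14 all estimates lie below 0, and the medians move from -2.86 to -1.80 and -2.07 in control libraries.

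Genotype was compared within each day, to find whether loss of Casp2 in CMs changed the RNA of these genes. At P1, 0 of 10 genes passed between the genotypes by edgeR, DESeq2 or limma-voom, where edgeR called 0% of tested genes, with 1496 (7.34%) at an unadjusted p below 0.05, and DESeq2 called 105 and limma-voom 63. The fitted differences ran from -0.26 (Luc7l) to 0.58 (Srrm2) for 9 genes, with SEs of 0.32 to 1.18. Ddx5 differed by 2.07 (SE 0.81, adjusted p = 0.644), with 3 of 4 Casp2-depleted libraries above all 3 control libraries and 1 at 0 reads. With all 24 libraries the difference of Ddx5 was 0.10, since P1 control replicate 1, which the study left out, held 1074 reads of Ddx5. The study dropped that library for signs of cytoplasmic contamination. Mitochondrial genes took 1.88% of its reads on genes, against at most 0.436% in the kept P1 libraries.

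At P7, 0 of 10 genes were called by any of the 3 tools, where edgeR called 0% of tested genes, with 860 (4.22%) at an unadjusted p below 0.05, and DESeq2 called 25 and limma-voom 1. The difference lay between -0.27 and 0.15 for 9 genes, with SEs of 0.30 to 1.07. Ddx5 was lower in every Casp2-depleted library (69.5 to 236 CPM) than in every control library (311 to 365 CPM), with a difference of -1.31 (SE 0.71) that did not pass the test (unadjusted p = 0.0641, adjusted p = 1). Groups that did not overlap in this direction were found for 1 of 10 genes here and for 0.943% of all tested genes. The direction held without each P7 library in turn, from -1.71 to -1.06. With limma and the same cutoffs, the study reports genes that differ between the genotypes at P7, Cdkn1a and Lin37 among them. The 0% called by edgeR at P7 is thus a count of this fit and does not show that no gene differed.

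At P14, 1 of 10 genes was called, where 0.167% of tested genes were called in either direction. Pnisr was lower in Casp2-depleted libraries by 1.65 on the log2 scale (SE 0.41, adjusted p = 0.0493), with a mean of 245 ± 83.3 CPM (SD, n = 3) against 766 ± 531 CPM (SD, n = 3), and the groups overlapped. The call stood just inside the threshold and was lost in 9 of 11 other fits, with an adjusted p of 0.760 with the replicate block, 0.357 with the percent of reads on no gene in the model and 0.323 with all 24 libraries. It was also lost without P14 control replicate 1 (log2 fold change -0.96, adjusted p = 0.544), without control replicate 4 (-1.75, adjusted p = 0.0714) and without Casp2-depleted replicate 3 (-1.37, adjusted p = 0.312) or 4 (-1.48, adjusted p = 0.284). It stood without control replicate 2 (-1.91, adjusted p = 0.00804) and without Casp2-depleted replicate 2 (-1.95, adjusted p = 0.0178), and the direction held in all 6.

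The other 9 genes differed by -1.29 (Srsf11, SE 0.42, adjusted p = 0.286) to 0.34 (Ddx5, SE 0.84, adjusted p = 1), and 9 of the 10 estimates lay below 0 and 1 above, where 43.7% of all tested genes lay above, with a median of -0.69 against a median of 0 over all genes. Some tested genes, such as Srsf1, Srsf4 and Srsf7, had a fitted difference of exactly 0, so the genes not above 0 did not all lie below it. The share of all genes below 0 is not given here. Without P14 control replicate 1, the library with the most reads on the 10 genes at that day and the fewest reads on no gene (63.7%), the median was -0.17 and 3 of 10 estimates lay above 0. Groups did not overlap, with Casp2-depleted lower, for 0 of 10 genes and for 2.14% of tested genes. On the list of other splicing genes, 3 were called, all lower in Casp2-depleted libraries, and their reads were few. Clk1 held 120, 4 and 153 reads in control and 2, 41 and 0 reads in Casp2-depleted libraries (log2 fold change -2.88, SE 0.72, adjusted p = 0.0417). Zranb2 held 46, 0 and 0 reads against 1, 0 and 0 (adjusted p = 0.0316), and Rsrp1 held 65, 13 and 0 reads against 0, 4 and 0 (adjusted p = 0.0355).

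**Figure D5:**
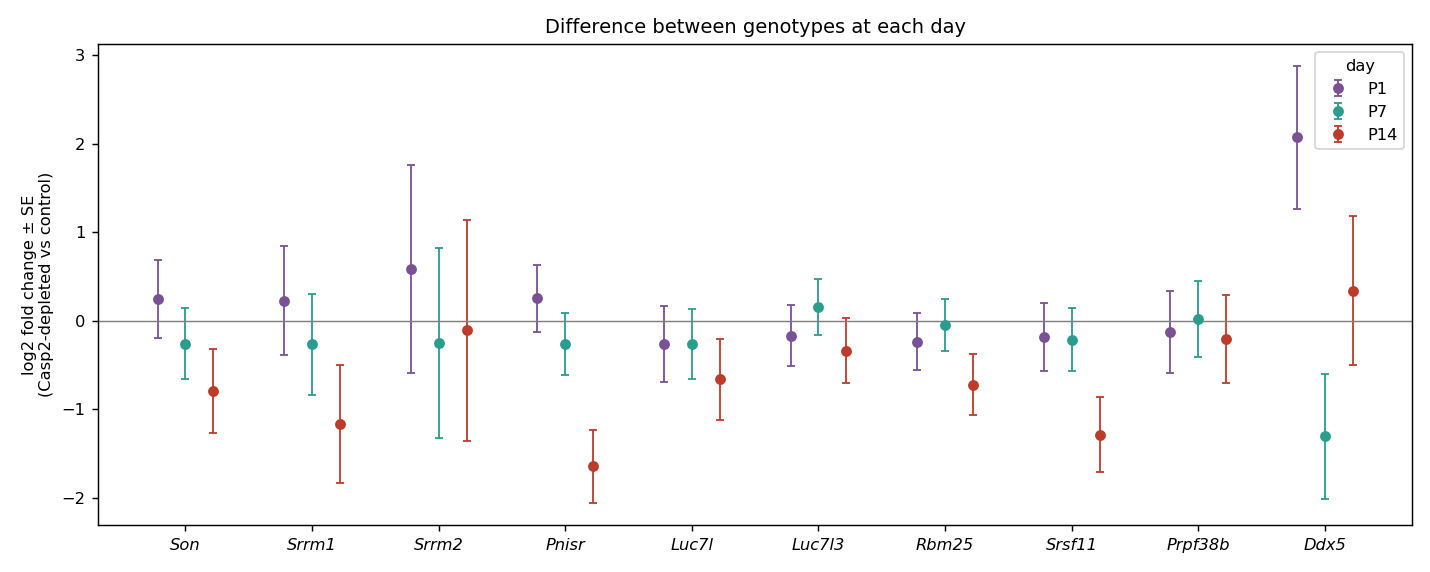
Log2 fold change of Casp2-depleted against control libraries (vertical axis) with its SE (bars) for each of the 10 genes (horizontal axis) at P1, P7 and P14 (colour). Only Pnisr at P14 passed the threshold, and 9 of 10 estimates at P14 lie below 0 with a median of -0.69.

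Whether the step between days differed by genotype was tested as an interaction. From P1 to P7, 0 of 10 genes were called, where 0% of tested genes were called by edgeR, 1392 (6.83%) had an unadjusted p below 0.05, and DESeq2 called 66 and limma-voom 2. From P7 to P14, 0 of 10 were called, where 0.0245% of tested genes were called. The lowest p-values, named after they were seen, belonged to Ddx5 for the first step, with an interaction of -3.38 (SE 1.07, unadjusted p = 0.00163, adjusted p = 0.570), and to Pnisr for the second, with -1.39 (SE 0.54, unadjusted p = 0.0100, adjusted p = 0.417). DESeq2 and limma-voom called 0 of 10 genes in both interactions.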

How the data were processed

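Nuclei of 24 pools (4 per day and genotype) were sequenced with a 3′ kit, 100 bp single-end. The authors deposited raw read counts per Ensembl gene (GRCm39, release 108), taken over exons and introns together. The submitters' processing notes name FastQC 0.11.8, cutadapt 4.0, STAR 2.6.1e and HTSeq 2.0.3. The strand setting is not given in the sources used here. The authors dropped 3 libraries (replicate 1 of the P1 control, replicate 3 of the P14 control and replicate 1 of the P14 Casp2-depleted group), and the same 21 were used here. Reads on no gene were not counted in library totals, and made up 34.3 to 76.1% of uniquely placed reads. GENCODE vM39 named 56236 of 56923 identifiers (99.5% of reads).

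A gene entered with a minimum of 10 reads over all libraries, spread over 3 or more of them (20368 genes). These were fitted with edgeR 4.0.16 (quasi-likelihood F-test, robust, TMM, 6 group means, 15 residual degrees of freedom) in R 4.3.3, with Benjamini-Hochberg adjustment. Calls needed a log2 fold change beyond 1 in either direction and an adjusted p under 0.05. The script was tested on simulated counts. Log2 CPM used a prior count of 2. Correlations were tested by exact permutation in Python 3.11.15 with scipy 1.17.1, pandas 2.3.3 and numpy 2.4.6, and figures were drawn with matplotlib 3.10.9. Marker sums and floors of 3 reads are CPM by reads on genes, and cover counting error only. Promoters came from GRCm39 and GENCODE vM39.

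The 10 genes, the lists and the tests were chosen with earlier results of these data known. Named were the 10 genes, Malat1, Neat1, Casp2, up to 3 called genes with the largest change per group of the splicing list and day contrast, every gene of that list called between genotypes, and the 8 genes with the most alike pattern among those of at least 20 CPM. Each library is a separate pool of hearts. Replicate numbers are batch numbers in the file names. Of 9 same-day pairs with one number, the correlation of deviations from the group means was -0.059 to 0.185 and 1 was above 0.1, against -0.14 to 0.0993 in 28 other pairs. Replicates of a group differed beyond sampling noise in all 27 pairs (chi-square per degree of freedom 17.8 to 75.3). Alternatives were other filters, DESeq2 1.42.0 and its size factors, limma-voom 3.58.1 with quantile normalization, library size without the 10 most-read genes, the replicate block, the no-gene percent in the model, all 24 libraries and each library left out. A fit without robust estimation and scaling by reads on genes alone were added after seeing the data.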

Additional observations from a re-analysis of the deposited data

Results flagged for a closer look

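In P1 Casp2-depleted replicate 4 the levels of Srrm1 (3350 CPM), Pnisr (3461 CPM) and Srsf11 (2896 CPM) stood far above the other 3 libraries of the group by Dixon's test. That library had 36.8% of its reads on no gene, the fewest at P1. Prpf38b stood apart in the same way in P7 Casp2-depleted replicate 2, at 1623 CPM. Of 30 groups checked 4 stood out, and nothing is read from this count. Of these 4, 3 came from P1 Casp2-depleted replicate 4. Their genes, Srrm1, Pnisr and Srsf11, move together over the 21 libraries, with an r of 0.92 to 0.96 between pairs. A chance rate of about 1 in 20 holds for independent checks, so it is no measure here. The test was also run on CPM rather than on a log scale.

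The 3 libraries that the study left out held 13 of 30 values of the 10 genes above the kept control libraries of their day, in CPM by reads on genes. In P14 control replicate 3 these were Son (1410.0), Srrm2 (449), Pnisr (2618), Luc7l (1489.9), Luc7l3 (9895) and Rbm25 (5433). That library had 16.1% of its reads on no gene and 2049 detected genes, and 0 reads of Prpf38b and Ddx5. In P14 Casp2-depleted replicate 1 they were Son (1106), Srrm2 (282), Pnisr (2105), Luc7l3 (3069), Srsf11 (1646) and Prpf38b (254). That library had 4285 detected genes and 0 reads of Ddx5. Its share of reads on no gene was 64.1%, close to the 63.7% of P14 control replicate 1, where Son stood at 360.4 CPM by reads on genes. P1 control replicate 1 was dropped by the study for signs of cytoplasmic contamination and had 9.21% of its reads on no gene. Ddx5 stood at 324 CPM there, against 12.1 to 39.99 CPM in the kept P1 control libraries. The kept P14 libraries had 7628 to 13651 detected genes. How many values of all genes lay above the kept control libraries is not given here, so nothing is read from the count of 13.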

How the results depend on the processing

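Calls of the 10 genes. The count of 1 between genotypes at P14 went to 0 with all 24 libraries, filterByExpr, no filter, DESeq2, limma-voom, the replicate block, the no-gene term, no robust estimation and scaling by reads on genes alone. The 2 called from P1 to P7 in Casp2-depleted libraries went to 0 with all 24 libraries, filterByExpr, DESeq2 size factors, DESeq2, limma-voom, the no-gene term and scaling by reads on genes alone, and to 1 with the block or without robust estimation. From P7 to P14 the 9 called in control went to 4 with all 24 libraries, 5 with filterByExpr, 1 with limma-voom and 3 with the no-gene term, and the 9 in Casp2-depleted libraries to 0 with limma-voom and 3 with the no-gene term. Leaving out 1 library gave 0 to 1 called from P1 to P7 in control and 0 to 3 in Casp2-depleted, 6 to 9 and 8 to 9 from P7 to P14, and 0 to 1 between genotypes at P14.

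Calls over all genes. Between genotypes at P14, 34 went to 3 with filterByExpr, 15 with no filter, 662 with DESeq2, 149 with limma-voom, 13 with the block and 7 by reads on genes alone. At P1, 0 went to 105 with DESeq2 and 63 with limma-voom, and at P7 to 25 and 1. From P1 to P7 in control, 2 went to 0 with all 24 libraries and the no-gene term, 1 with filterByExpr, no filter, the block and scaling by reads on genes alone, 88 with DESeq2, 93 with limma-voom and 10 without robust estimation. In Casp2-depleted, 4 went to 0 with all 24 libraries and filterByExpr, 1 with DESeq2 size factors and by reads on genes alone, 46 with DESeq2 and 12 with limma-voom. For P14 against P7 in control, 382 went to 35 with all 24 libraries, 231 with filterByExpr, 1031 with DESeq2, 702 with limma-voom, 38 with the no-gene term and 121 by reads on genes alone (27 higher, 94 lower). In Casp2-depleted, 577 went to 124 with all 24 libraries, 1171 with DESeq2, 147 with the no-gene term and 249 by reads on genes alone (37 higher, 212 lower). The interaction from P1 to P7 went from 0 to 66 with DESeq2 and 2 with limma-voom, and that from P7 to P14 from 5 to 0 with filterByExpr, 246 with DESeq2, 2 with the block and 8 with the no-gene term. Leaving out 1 library gave 0 to 3 and 1 to 13 from P1 to P7, 176 to 502 and 258 to 642 from P7 to P14, 19 to 166 between genotypes at P14 and 4 to 47 for the second interaction.

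Directions. Between genotypes at P14, Prpf38b turned to 0.48 with all 24 libraries, 0.047 with limma-voom and 0.013 with the no-gene term, and Srrm2 to 0.054 with DESeq2 size factors, 0.056 with DESeq2, 1.74 with limma-voom, 0.076 with the block, 0.42 with the no-gene term and 0.17 by reads on genes alone. Luc7l3 (0.25) and Rbm25 (0.25) turned with limma-voom. At P7 Luc7l3 turned to -0.23 with limma-voom, and at P1 Srrm2 to -0.44 with the no-gene term. Between P7 and P14 limma-voom turned Luc7l3 to 0.18 in control and 0.66 in Casp2-depleted libraries, and Rbm25 to 0.25 in the latter. Without 1 library, the ranges between genotypes that crossed 0 were, at P14, -0.26 to 1.48 for Ddx5, -1.02 to 0.64 for Luc7l, -0.48 to 0.41 for Prpf38b and -0.69 to 1.03 for Srrm2. At P1 they were -0.95 to 0.19 for Luc7l and -0.56 to 1.33 for Srrm2, and at P7 -0.28 to 0.56 for Luc7l3. For the rise from P1 to P7 in Casp2-depleted libraries, the ranges of Son (-0.097 to 1.16), Srrm2 (-0.15 to 1.34) and Ddx5 (-0.11 to 0.92) also crossed 0. The median r with the share of reads on no gene went at P1 from -0.75 to -0.38 without the 2 farthest libraries and -0.33 with all libraries, and at P7 from -0.25 to 0.11. With detected genes it went at P7 from 0.15 to 0.52. The cause of these changes was not tested.

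Limits. Pools of 2 hearts at P14, 891817 reads in the shallowest library and 0 to 617 reads of Ddx5 bound the precision. The block changed no other call of the 10 genes.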
